A study of Mus musculus with 28 samples.

Results

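The kidney's proximal tubule takes phosphate and glucose back from the filtrate through a small set of membrane transporters, and 7 of their genes are described here in tubular and endothelial cells from injured mouse kidneys. The genes were chosen by symbol and by no cut on their values, though with earlier results of these data known. They are 7 of the 53392 genes that the transcript names give. Slc34a1, Slc34a3 and Slc20a2 encode sodium-coupled phosphate transporters. Slc5a2 and Slc5a1 encode the sodium-glucose cotransporters SGLT2 and SGLT1, and Slc2a2 encodes GLUT2, a glucose carrier without sodium coupling. Slc5a12, a sodium-coupled carrier of lactate and other monocarboxylates, belongs with them by position in the tubule rather than by phosphate or sugar transport.

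As background, all the sodium-coupled members draw on the sodium gradient across the cell membrane. NaPi-IIa, the product of Slc34a1, carries most phosphate uptake across the brush border of the mouse proximal tubule, and parathyroid hormone and FGF23 withdraw it from that membrane. SGLT2 takes up most filtered glucose in the early proximal tubule, SGLT1 takes up the remainder in the late segment, and GLUT2 lets glucose leave through the basolateral membrane.

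RNA was sequenced from male FVB mice in 28 samples, which the labels place in 10 groups. The values by library come from 16 libraries in 6 groups, and every one of these is from a kidney with ischemic injury. In each cell type 3 libraries came from mice given scrambled miRNA, 3 from mice given exosomes and 2 from mice given a mimic of miR-486-5p. The sham groups and the groups with injury and no treatment, 3 samples each, were examined only through the authors' 12 comparison tables. Endothelial cells had been collected with CD31 microbeads, and proximal tubular cells had been microdissected. The labels give neither the age of the mice nor the source of the exosomes. They speak of 3 mice for each group in the extraction notes and of n = 2 for the mimic in the design. Each library was taken as 1 animal. Tubular and endothelial libraries share 7 library numbers, and the labels do not say whether such a number marks the same mouse. The test between the cell types took all 16 libraries as independent.

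The promoters of Slc34a1 and Slc5a1 are shown because these genes differed between the cell types in opposite directions. Each window holds 250 bases before and 50 after the RefSeq start in GRCm38.p6, 5′ to 3′ on the plus strand, at chr13:55399398-55399697 for Slc34a1 and chr5:33103969-33104268 for Slc5a1. Capitals mark matches on either strand to GTTAAT, a core of the sites bound by HNF1 factors.
Slc34a1: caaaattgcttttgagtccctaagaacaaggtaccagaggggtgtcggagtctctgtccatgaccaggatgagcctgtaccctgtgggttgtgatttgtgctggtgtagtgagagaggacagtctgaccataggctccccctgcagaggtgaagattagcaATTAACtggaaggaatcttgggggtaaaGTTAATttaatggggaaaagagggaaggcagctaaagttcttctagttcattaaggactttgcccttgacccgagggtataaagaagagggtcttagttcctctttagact
Slc5a1: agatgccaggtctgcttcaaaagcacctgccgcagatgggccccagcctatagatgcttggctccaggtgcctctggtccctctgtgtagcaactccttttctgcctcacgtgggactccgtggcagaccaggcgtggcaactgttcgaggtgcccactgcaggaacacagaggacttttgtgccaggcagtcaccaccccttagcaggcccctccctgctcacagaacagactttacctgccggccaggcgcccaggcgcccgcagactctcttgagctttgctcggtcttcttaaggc
The Slc34a1 window holds the letters GTTAAT at 2 places, beginning 89 and 61 bases before the start, and the Slc5a1 window at none. Over all 32851 windows of this length, 7.10% hold them at least once. The HNF4 letters CAAAGTCCA, in 0.475% of windows, and a longer HNF1 consensus, in 0.399%, were in neither window. GC content was 46.7% in the Slc34a1 window and 60.3% in the Slc5a1 window. The windows of Slc34a3 and Slc2a2 held none of these 3 motifs, and Slc5a2, Slc20a2 and Slc5a12 are not in the table of windows. The Slc34a1 window also holds TATAAA, found in 13.6% of windows, beginning at base 17 counted from the start. That start lies inside the gene's span, which begins at chr13:55398187. A match describes the letters only.

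The libraries held 8.27 to 25.3 M reads, and both mimic groups held the deepest library of their cell type. Markers of each cell type were summed in TPM, a transcript level per length whose total is the same in each library. The summed 16 proximal tubule markers ran from 15588 to 47152 TPM in the 8 tubular libraries. In the 8 endothelial libraries they ran from 1774 to 16603 TPM, with 10073 TPM in scrambled-miRNA replicate 1 and 16603 TPM in exosome replicate 1. The other 6 endothelial libraries lay between 1774 and 5368 TPM. The 10 endothelium markers summed to 272 to 524 TPM in endothelial and 19.9 to 37.6 TPM in tubular libraries, so the labelled cells were detected in both. The 7 markers of the thick ascending limb, a later segment of the tubule, summed to 3715 to 14256 TPM in the endothelial libraries, above the endothelium sum in each, and to 241 to 642 TPM in the tubular ones. Umod alone read 3505 to 11617 TPM in the endothelial libraries, so the thick ascending limb sum there rests mostly on this gene and gives no share of cells. No listed marker was at 0 in all libraries of a cell type. In bulk samples fewer cells of a type and less RNA per cell cannot be told apart.

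Among the phosphate transporters of tubular cells Slc34a1 was by far the highest (GRCm38 chr13:55398187-55415592, plus strand). It read 1611, 765 and 241 TPM in scrambled-miRNA replicates 1 to 3, 926, 1001 and 818 TPM with exosomes, and 1713 and 1407 TPM with the mimic. The mean was 1060 ± 491 TPM (SD, n = 8), and by TPM its rank among all genes ran from 55 to 501 with a median of 116. The scrambled-miRNA libraries held both a value close to the highest and the lowest of all 8, so their spread covered most of the range of the other groups.

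Slc34a3 encodes NaPi-IIc, the other brush border phosphate transporter of this family (chr2:25228898-25234364, minus strand). It read 38.7, 8.24 and 3.56 TPM with scrambled miRNA, 18.6, 16.6 and 9.46 TPM with exosomes, and 29.2 and 10.1 TPM with the mimic. Its mean was 16.8 ± 11.9 TPM (SD, n = 8), and the ratio of Slc34a1 to Slc34a3 in TPM ran from 41.6 to 139 over the tubular libraries. Slc34a1 and Slc34a3 were both highest in replicate 1 and lowest in replicate 3 of the scrambled-miRNA group.

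Slc20a2 encodes PiT-2, a phosphate transporter of another family that most tissues express (chr8:22476788-22569612, plus strand). In tubular cells it read 17.3, 12.6 and 13.7 TPM with scrambled miRNA, 8.10, 7.64 and 5.87 TPM with exosomes, and 13.8 and 7.06 TPM with the mimic. The 3 exosome libraries all lay below the 3 scrambled-miRNA libraries, and the mimic libraries fell on either side of the gap. Its mean was 10.7 ± 4.10 TPM (SD, n = 8).

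Of the glucose transporters, Slc5a2 was the highest in tubular cells (chr7:128265657-128272430, plus strand). It read 472, 175 and 103 TPM with scrambled miRNA, 221, 178 and 118 TPM with exosomes, and 282 and 174 TPM with the mimic, with a mean of 216 ± 118 TPM (SD, n = 8). The 3 groups overlapped. Slc34a1 exceeded Slc5a2 in every tubular library, by 2.35 to 8.07 times in TPM.

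Slc5a1 was the lowest of the 7 in tubular cells (chr5:33104219-33162870, plus strand). It read 4.33, 7.81 and 3.58 TPM with scrambled miRNA, 4.96, 3.39 and 4.24 TPM with exosomes, and 5.76 and 5.00 TPM with the mimic, with a mean of 4.88 ± 1.42 TPM (SD, n = 8). The TPM of Slc5a2 was 22.4 to 109 times that of Slc5a1 in these libraries. By SD relative to the mean Slc5a1 varied least among the members in tubular cells, and the scrambled-miRNA libraries held both the highest and a low value.

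Slc2a2 (chr3:28697903-28731359, plus strand) read 82.4, 51.4 and 41.4 TPM with scrambled miRNA, 49.9, 31.3 and 24.0 TPM with exosomes, and 65.4 and 38.8 TPM with the mimic, with a mean of 48.1 ± 18.8 TPM (SD, n = 8). The exosome group lay toward the low end but overlapped the others. Much of this level sat on transcripts that are annotated as non-coding. A retained-intron transcript with 4 exons averaged 22.3 TPM in tubular cells, a transcript of 10 exons annotated for nonsense-mediated decay 17.3 TPM, and the coding transcript, with 11 exons, 8.48 TPM. The coding transcript held 37.5% to 51.7% of the gene's estimated reads in tubular libraries.

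Slc5a12 (chr2:110597298-110647779, plus strand) read 92.1, 66.2 and 22.6 TPM with scrambled miRNA, 83.7, 69.1 and 46.5 TPM with exosomes, and 95.0 and 48.1 TPM with the mimic, with a mean of 65.4 ± 25.1 TPM (SD, n = 8). All 3 groups overlapped.

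By mean TPM the order in tubular cells was Slc34a1, Slc5a2, Slc5a12, Slc2a2, Slc34a3, Slc20a2 and Slc5a1. Of the 6 neighbouring pairs in this order, the ranges of Slc5a2 and Slc5a12 did not overlap over the 8 libraries, and those of the other 5 pairs did. Counting coding transcripts only, Slc20a2 with 10.2 TPM stood above Slc2a2 with 8.48 TPM and Slc34a3 with 7.48 TPM. Coding transcripts held 70.6% to 89.5% of the reads of Slc34a3 and 85.0% to 90.4% of those of Slc5a2 in tubular libraries. Exons of Slc5a2, Slc34a1 and Slc20a2 share 597, 545 and 95 bases with the genes BC017158, Pfn3 and Smim19 on the opposite strand, and the strand setting of the counting is not given in the sources used here.

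**Figure D1:**
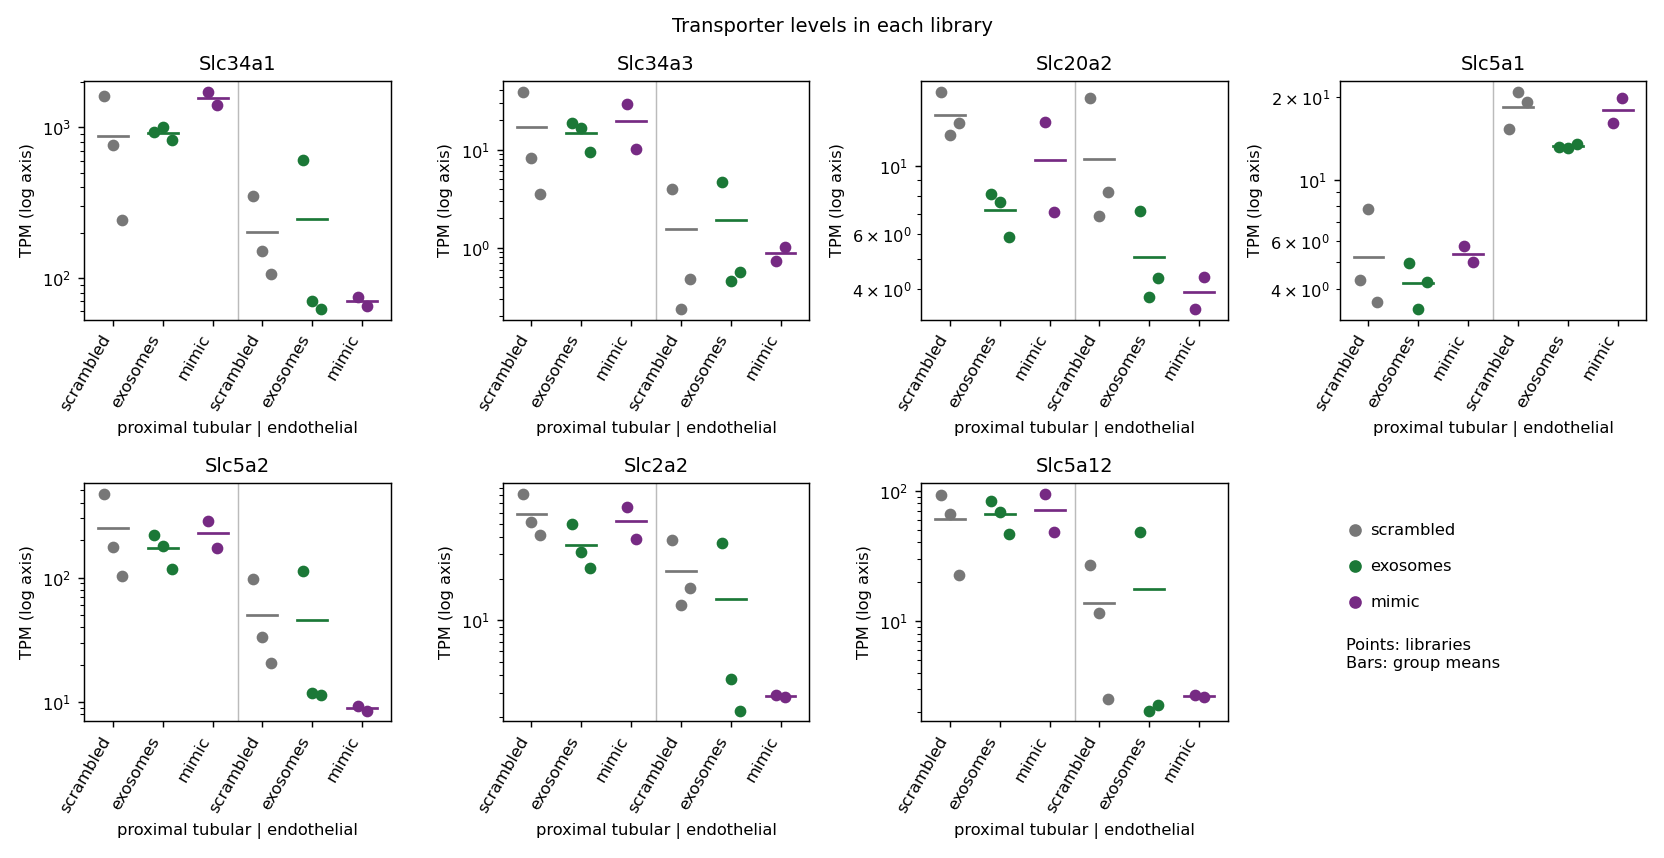
TPM of the 7 transporter genes on a log axis, 1 point per library, for 3 treatments in tubular and in endothelial cells; bars are group means. Slc34a1 is the highest gene in both cell types, from 241 to 1713 TPM in tubular and 62.5 to 602 TPM in endothelial libraries, and Slc5a1 is the member whose endothelial points all lie above its tubular ones.

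In the endothelial libraries 6 of the members were lower and Slc5a1 was higher than in tubular cells. Slc34a1 read 352, 151 and 106 TPM with scrambled miRNA, 602, 70.6 and 62.5 TPM with exosomes, and 75.2 and 65.3 TPM with the mimic. Slc5a2 read 97.4, 33.2 and 20.6 TPM, then 114, 11.8 and 11.4 TPM, then 9.35 and 8.59 TPM in the same order. In both genes scrambled-miRNA replicate 1 and exosome replicate 1, the libraries with the most proximal tubule marker signal, stood above the other 6.

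Slc2a2 read 38.0, 13.0 and 17.1 TPM with scrambled miRNA, 36.5, 3.75 and 2.23 TPM with exosomes, and 2.89 and 2.79 TPM with the mimic. Slc5a12 read 26.9, 11.5 and 2.50 TPM, then 48.2, 2.05 and 2.25 TPM, then 2.70 and 2.61 TPM. Slc34a3 read 3.96, 0.239 and 0.485 TPM, then 4.66, 0.461 and 0.567 TPM, then 0.729 and 1.03 TPM, on only 8 to 144 reads per library. The same pair of libraries was highest for all 3 genes.

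Slc20a2 read 16.5, 6.87 and 8.21 TPM in the endothelial scrambled-miRNA libraries, 7.14, 3.77 and 4.34 TPM with exosomes, and 3.45 and 4.37 TPM with the mimic. Scrambled-miRNA replicate 1 stood alone at the top here, and exosome replicate 1 lay within the range of the scrambled-miRNA group. Slc5a1 read 15.3, 20.9 and 19.2 TPM, then 13.2, 13.1 and 13.5 TPM, then 16.1 and 19.9 TPM. The pair of libraries rich in proximal tubule markers sat at 15.3 and 13.2 TPM, in the lower range of its values.

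The endothelial order by mean TPM was Slc34a1 (186 ± 194), Slc5a2 (38.2 ± 42.5), Slc5a1 (16.4 ± 3.20), Slc2a2 (14.5 ± 15.0), Slc5a12 (12.3 ± 16.9), Slc20a2 (6.83 ± 4.28) and Slc34a3 (1.52 ± 1.75; SD, n = 8 each). All neighbours in this order overlapped. Counting coding transcripts only, Slc2a2 with 2.76 TPM fell below Slc5a12 with 11.3 TPM and Slc20a2 with 6.70 TPM. The ratio of Slc34a1 to Slc5a2 was 3.61 to 8.05 in endothelial libraries, within the tubular range. The ratio of Slc5a2 to Slc5a1 was 0.432 to 8.63, below the lowest tubular ratio of 22.4 in every library.

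The cell types were compared with edgeR's quasi-likelihood test on the estimated counts of all 16 libraries, with Benjamini-Hochberg adjustment over 17143 genes and a threshold of 0.05. A gene past that threshold is called here. Of these genes, 29.9% were called lower and 36.3% higher in endothelial cells, so a call in this comparison is common. Among the members 6 fell and 1 rose. The fold of Slc34a1 was -2.94 ± 0.46 on the log2 scale (SE, adjusted p = 5.93e-05), that of Slc34a3 -4.16 ± 0.60 (adjusted p = 2.70e-05) and that of Slc20a2 -0.90 ± 0.12 (adjusted p = 9.96e-06). Slc20a2, the broadly expressed phosphate transporter, thus had the smallest difference of the 6.

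Slc5a2 differed by -3.02 ± 0.50 (SE, edgeR adjusted p = 0.000102), Slc2a2 by -2.34 ± 0.45 (adjusted p = 0.000334) and Slc5a12 by -3.03 ± 0.63 (adjusted p = 0.000652). Slc5a1 rose by 1.64 ± 0.17 (adjusted p = 1.25e-06). Its TPM of 13.1 to 20.9 in endothelial and 3.39 to 7.81 in tubular cells did not overlap, whereas the TPM ranges of the other 6 did. The share of all genes whose ranges separate between the cell types is not given, so this does not set Slc5a1 apart from genes at large. Leaving out both endothelial libraries rich in proximal tubule markers gave log2 folds of -3.68 for Slc34a1, -5.25 for Slc34a3, -1.07 for Slc20a2, -3.96 for Slc5a2, -3.22 for Slc2a2, -4.32 for Slc5a12 and 1.69 for Slc5a1, and all 7 were still called.

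Beside this, 15 of the 16 proximal tubule markers were called lower in endothelial cells, with a median log2 fold of -2.74, and 6 of the 7 thick ascending limb markers were called higher, with a median of 3.68. Of the other lists, all 10 endothelium, 7 distal tubule and collecting duct, 5 podocyte and 7 macrophage markers were called higher. Of the 7 injured-tubule markers 5 were called higher, with a median of 2.51, and of the 5 fibroblast and pericyte markers 2 were higher and 1 lower, with a median of 0.21. The 6 early proximal tubule markers were all called lower, and of the 6 late ones 2 were higher and 4 lower. The part of these cells in the members' differences was not tested. Over all genes tested the median was 0.06.

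**Figure D2:**
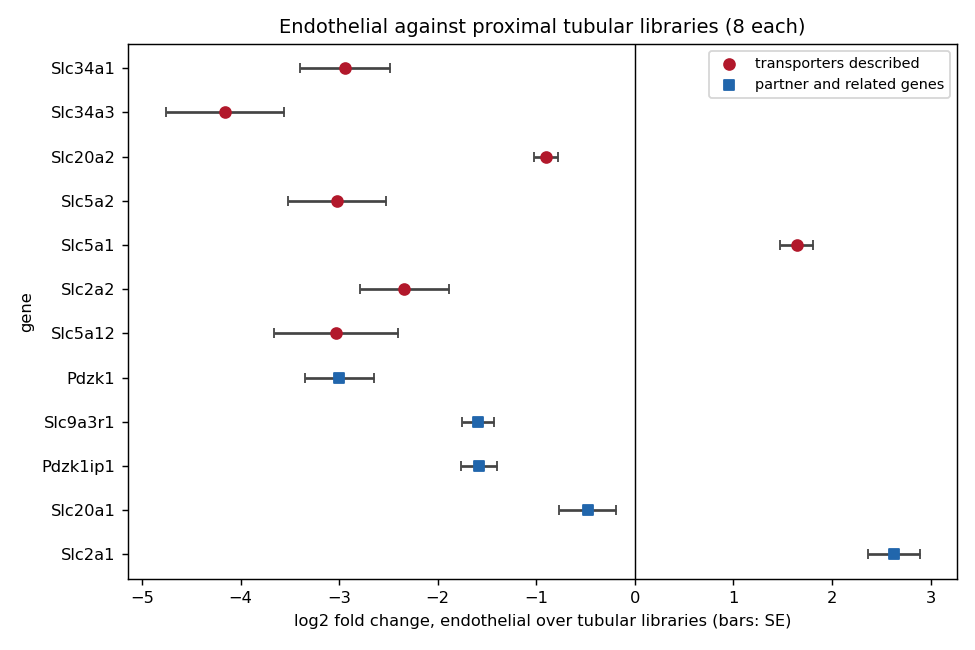
Log2 fold of endothelial over tubular libraries with its SE for the 7 transporters and 5 partner genes, from the edgeR fit of 16 libraries. Slc5a1 (1.64) and Slc2a1 (2.63) lie to the positive side, and the other 6 members lie between -0.90 and -4.16.

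The partners of these transporters were also compared. Pdzk1 and Slc9a3r1 encode PDZ scaffolds that hold NaPi-IIa at the brush border, and they were lower in endothelial cells by log2 folds of -3.00 ± 0.35 and -1.59 ± 0.16 (SE, edgeR adjusted p = 3.91e-06 and 8.39e-07). Pdzk1ip1, whose product MAP17 is needed for SGLT2 activity, differed by -1.58 ± 0.18 (adjusted p = 3.00e-06). Slc20a1, which encodes the phosphate transporter PiT-1, differed by -0.48 ± 0.29 and was not called (adjusted p = 0.158). Slc2a1, the gene of the widely used glucose carrier GLUT1, was higher by 2.63 ± 0.26 (adjusted p = 8.03e-07).

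Of 20 listed genes of phosphate handling, 19 were tested, and 5 were called higher and 11 lower in endothelial cells, with a median log2 fold of -0.62. The largest folds upward were those of Slc34a2 (4.84), a phosphate transporter best known from gut and lung, the scaffold Slc9a3r2 (3.44) and stanniocalcin Stc1 (3.11). The largest downward beside Pdzk1 were those of the vitamin D enzymes Cyp24a1 (-2.33) and Cyp27b1 (-1.94), alkaline phosphatase Alpl (-1.90) and the FGF receptor Fgfr4 (-1.86). Stc1 and Cyp27b1 averaged under 2 TPM in both cell types, and Slc34a2 averaged 0.514 TPM in tubular cells.

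Of 19 listed genes of sugar handling, 7 were called higher and 11 lower, with a median of -2.03. Those of gluconeogenesis and fructose metabolism were among the lower ones, with log2 folds of -3.20 for Khk, -3.13 for Fbp1, -3.10 for Pck1 and -2.84 for G6pc, together with the monocarboxylate transporter Slc5a8 (-2.81). The inositol transporters Slc2a13 (5.07) and Slc5a3 (4.78) and hexokinase Hk1 (4.04) were the highest. The fold of Slc2a13 is set against a tubular mean of only 0.0694 TPM, with 2.25 TPM in endothelial cells. Of the listed genes of the sodium gradient, Atp1b1 (0.84) and the sodium-hydrogen exchanger Slc9a3 (0.91) were higher, and Fxyd2 (-0.60) was lower.

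In tubular cells the exosome group differed from the scrambled-miRNA group in Slc20a2 and in none of the other 6 members by the edgeR test of 14913 genes, of which 5.13% were called in either direction. The log2 fold of Slc20a2 was -0.53 ± 0.13 (SE), with an adjusted p of 0.0469. The call lay at the edge of the threshold. It was lost with reads of protein-coding transcripts only (-0.47, adjusted p = 0.0677), with a fit of the 2 groups alone (adjusted p = 0.0628) and with an offset for effective length (-0.70, adjusted p = 0.102). It was also lost, at an adjusted p of 0.0605 to 0.162, when any library but tubular scrambled-miRNA replicate 3 was left out.

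The other members had log2 folds between -0.53 and 0.55 in this comparison. Slc2a2 was at -0.53 ± 0.23 (SE, edgeR adjusted p = 0.192), Slc34a1 was at 0.38 ± 0.47, Slc34a3 at 0.38 ± 0.62, Slc5a2 at -0.10 ± 0.37, Slc5a1 at -0.00 ± 0.29 and Slc5a12 at 0.55 ± 0.36. The median gene was lower with exosomes by 0.31 on the log2 TPM scale and by 0.02 in the fit, so TPM values and fitted folds differ by about that amount. The fitted folds are relative to the bulk of genes.

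Among the listed genes, no phosphate gene was called in this comparison. Slc5a8 rose by 1.24 ± 0.29 and Fxyd2, of the sodium gradient list, rose by 0.89 ± 0.18 on the log2 scale (SE, edgeR adjusted p = 0.0469 and 0.0347). The partners were not called, at -0.64 for Slc20a1, -1.06 for Slc2a1, 0.05 for Pdzk1, 0.29 for Pdzk1ip1 and -0.24 for Slc9a3r1. Of the 7 injured-tubule markers 5 were called lower with exosomes, and their sum was 287, 971 and 1743 TPM in the scrambled-miRNA replicates and 69.5 to 207 TPM in the exosome libraries. Spp1 had the highest mean of these markers in tubular libraries, 343 TPM. The proximal tubule markers held 1 call, upward, of 16. Their part in the Slc20a2 value was not tested.

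With the mimic in tubular cells no member was called against scrambled miRNA, where 0.0201% of genes passed with edgeR. There, 2427 genes had an unadjusted p under 0.05 in edgeR, and 773 were called by DESeq2. Slc34a1 had the largest fold, 1.02 ± 0.52 on the log2 scale (SE, edgeR adjusted p = 0.362), and the others lay between -0.19 and 0.52. Both mimic libraries, at 1713 and 1407 TPM, were above scrambled-miRNA replicates 2 and 3, while replicate 1 at 1611 TPM lay between them. Slc5a2 was at 0.14 ± 0.41, Slc2a2 at -0.09 ± 0.25, Slc5a1 at 0.16 ± 0.32, Slc20a2 at -0.19 ± 0.14, Slc34a3 at 0.52 ± 0.68 and Slc5a12 at 0.48 ± 0.40. Of the partners Slc20a1 was at -1.32 ± 0.57 (adjusted p = 0.292), Slc2a1 at -0.69, Pdzk1 at 0.35, Pdzk1ip1 at -0.09 and Slc9a3r1 at 0.32.

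The mimic against exosomes called 0% of genes in tubular cells with edgeR, with 1848 genes at an unadjusted p under 0.05 and 238 called by DESeq2. Slc34a1 was 0.64 ± 0.52 higher in this fit, and both mimic libraries lay above the 3 exosome libraries in TPM, as they did for Slc5a1 (0.16 ± 0.32). The median gene was higher by 0.14 on the log2 TPM scale and lower by 0.02 in the fit. Slc20a2 stood at 0.35 ± 0.14 (SE, adjusted p = 0.374), and the other 4 members lay between -0.07 and 0.43. The partners were at -0.69 for Slc20a1, 0.37 for Slc2a1, 0.29 for Pdzk1, -0.38 for Pdzk1ip1 and 0.56 for Slc9a3r1, none of them called.

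In endothelial cells no member was called with exosomes against scrambled miRNA, nor was any of the 16316 genes (0%), with 1860 at an unadjusted p under 0.05 and 412 called by DESeq2. Slc20a2 had a log2 fold of -0.57 ± 0.23 (SE, edgeR adjusted p = 0.391). The folds of Slc34a1 (0.59 ± 0.72), Slc34a3 (1.31 ± 0.99), Slc5a2 (0.18 ± 0.85) and Slc5a12 (0.88 ± 1.10) were positive. With exosome replicate 1 and scrambled-miRNA replicate 1, the libraries rich in proximal tubule markers, left out, Slc34a1 was at -0.32, Slc5a2 at -1.03 and Slc5a12 at -0.94. Slc2a2 was at -0.39 ± 0.82.

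For Slc5a1 the TPM and the fit differed in this comparison. Its 3 exosome libraries, at 13.1 to 13.5 TPM, all lay below the 3 scrambled-miRNA libraries, at 15.3 to 20.9 TPM, yet its fitted fold was -0.06 ± 0.20. The median gene was lower by 0.42 on the log2 TPM scale here and higher by 0.02 in the fit. Of the partners Slc20a1 was at -1.13 ± 0.34 (SE, edgeR adjusted p = 0.259), Slc2a1 at 0.12, Pdzk1 at 0.22, Pdzk1ip1 at 0.17 and Slc9a3r1 at -0.31.

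With the mimic against scrambled miRNA in endothelial cells 6 of the 7 members had negative folds, and none was called. Again 0% of genes passed with edgeR, with 3176 at an unadjusted p under 0.05 and 1355 called by DESeq2. Slc20a2 came closest at -1.36 ± 0.26 on the log2 scale (SE, adjusted p = 0.0545). Both mimic libraries, at 3.45 and 4.37 TPM, lay below the 3 scrambled-miRNA libraries, at 6.87 to 16.5 TPM. The value passed under several other settings, with DESeq2 (adjusted p = 0.000311), in a fit of the 2 groups alone (0.0150), without exosome replicate 1 (0.0179) or 3 (0.0338), and with both marker-rich libraries left out (-1.14, 0.0178). Calls over all genes rose as well, to 1494 of 15670 with the 2 groups alone and 957 of 15985 without the marker-rich libraries. Without exosome replicate 1 or 3 they were 1321 of 16150 and 366 of 16237. In edgeR no gene passed with DESeq2's size factors, an offset for effective length, protein-coding reads or any scrambled-miRNA library left out.

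Slc2a2 had a log2 fold of -2.79 ± 1.04 (SE, edgeR adjusted p = 0.192), Slc5a2 of -2.14 ± 1.03 (0.292), Slc34a1 of -1.22 ± 0.83 (0.460) and Slc5a12 of -1.93 ± 1.33 (0.464). For Slc2a2, Slc5a2 and Slc34a1 both mimic libraries lay below all 3 scrambled-miRNA libraries in TPM, and for Slc5a12 they lay within their range. The median gene was lower by 0.17 on the log2 TPM scale here and at 0.00 in the fit. The share of all genes whose libraries separated in this way, here and in the other comparisons, is not given. With both marker-rich libraries left out, Slc5a2 (-1.41, adjusted p = 0.0229) and Slc2a2 (-2.31, adjusted p = 0.0139) were called beside Slc20a2. In that fit 957 of 15985 genes were called. Slc34a1 was then at -0.64, Slc5a12 at -0.98 and Slc34a3, with its sign turned, at 0.74, none called. In all libraries Slc34a3 was at -0.40 ± 1.12 and Slc5a1 at 0.13 ± 0.23.

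Beside these values, 15 of the 16 proximal tubule markers had negative folds with the mimic, with a median of -1.65 and none called, and their sum was 1994 and 2304 TPM against 4795, 5368 and 10073 TPM. All 7 injured-tubule markers had negative folds, with a median of -3.16 and none called, and their sum was 771 to 1144 TPM against 7973 to 11029 TPM. Most of this sum was Spp1, which ran from 691 to 10485 TPM over the endothelial libraries. The thick ascending limb sum was 12846 and 14256 TPM against 3715 to 8479 TPM. The part of these in the members' folds was not tested. Of the partners, Slc20a1 was at -1.64 ± 0.40 (SE, edgeR adjusted p = 0.0841), Pdzk1 at -1.69 ± 0.71 (0.238), Slc9a3r1 at -0.67, Pdzk1ip1 at -0.13 and Slc2a1 at 0.48.

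Against exosomes the endothelial mimic libraries again gave no call, with 0% of genes past the edgeR test, 661 at an unadjusted p under 0.05 and 5 called by DESeq2. The members ran from -2.81 ± 1.38 for Slc5a12 through -2.40 ± 1.02 for Slc2a2, -2.32 ± 1.04 for Slc5a2, -1.81 ± 0.85 for Slc34a1, -1.71 ± 1.13 for Slc34a3 and -0.79 ± 0.26 for Slc20a2 to 0.19 ± 0.23 for Slc5a1. In Slc34a1 exosome replicate 1 read 602 TPM beside 70.6 and 62.5 TPM in the other exosome libraries. With both marker-rich libraries left out, of which this is the one that enters the contrast, the folds were -0.04 for Slc5a12, -0.38 for Slc2a2, -0.38 for Slc5a2, -0.32 for Slc34a1, 0.26 for Slc34a3, -0.64 for Slc20a2 and 0.09 for Slc5a1. The partners were at -1.90 for Pdzk1, -0.50 for Slc20a1, -0.36 for Slc9a3r1, -0.30 for Pdzk1ip1 and 0.36 for Slc2a1.

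**Figure D3:**
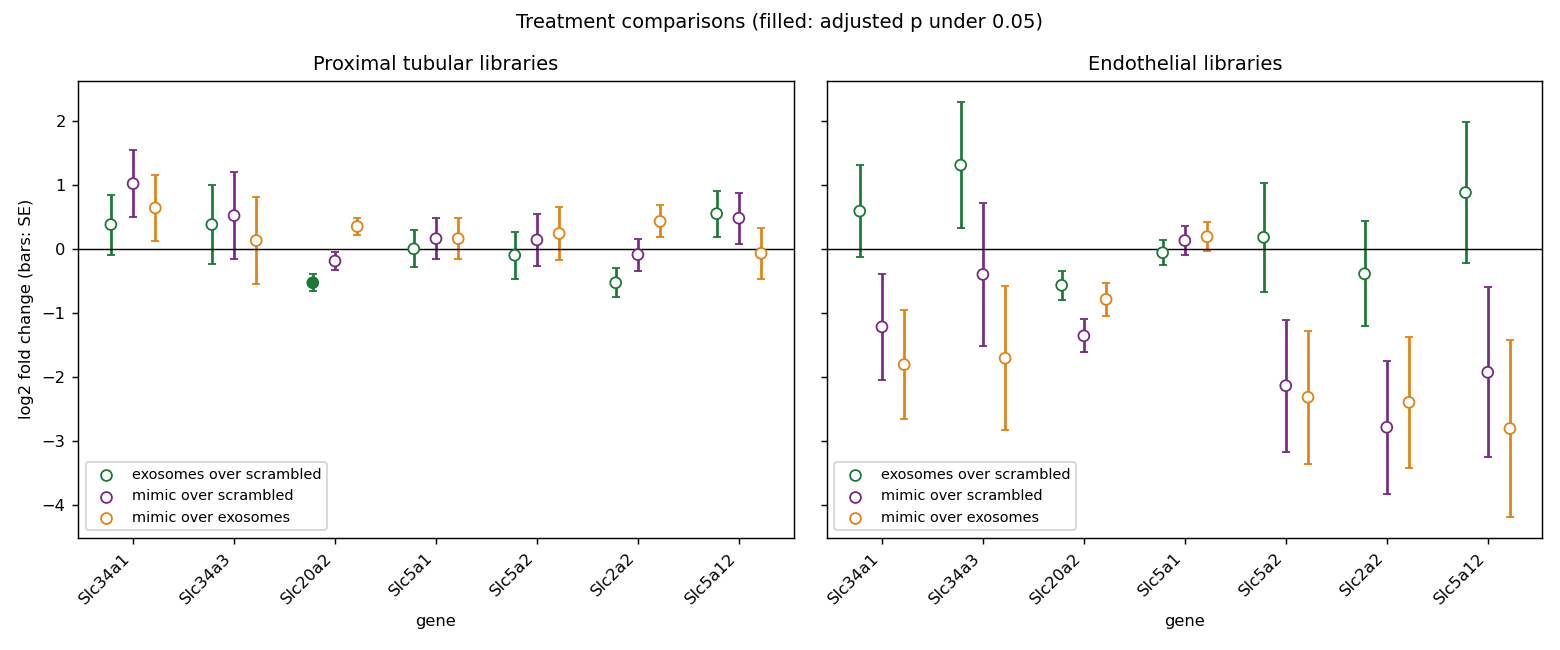
Log2 folds with SE of the 7 transporters in 3 treatment comparisons in each cell type, from the edgeR fits; filled points are called. Tubular Slc20a2 with exosomes against scrambled miRNA (-0.53) is the filled point, and the endothelial mimic folds reach -2.81.

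The treatment effects were compared between the cell types with an interaction term, tubular minus endothelial. No gene was called by edgeR for exosomes (0%, with 1333 at an unadjusted p under 0.05 and 34 called by DESeq2) or for the mimic (0%, 2650 and 609). For the mimic all 7 members had a positive difference, from 0.04 ± 0.42 for Slc5a1 to 2.69 ± 1.10 for Slc2a2 (SE, edgeR adjusted p = 0.991 and 0.261). Slc20a2 had the smallest p, with a difference of 1.18 ± 0.29 (adjusted p = 0.139). Slc34a1 was at 2.25 ± 1.09, Slc5a2 at 2.28 ± 1.18, Slc5a12 at 2.41 ± 1.48 and Slc34a3 at 0.88 ± 1.44. Proximal tubule markers had positive differences in 15 of 16 cases, with a median of 2.54, and their part was not tested.

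For exosomes the members' differences lay between -0.91 ± 1.26 for Slc34a3 and 0.08 ± 0.38 for Slc5a1. The partners were also not called in either interaction. Their differences for exosomes were 0.50 for Slc20a1, -1.16 for Slc2a1, -0.15 for Pdzk1, 0.14 for Pdzk1ip1 and 0.08 for Slc9a3r1, and for the mimic 0.31, -1.16, 2.03, 0.04 and 0.99 in the same order.

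**Figure D4:**
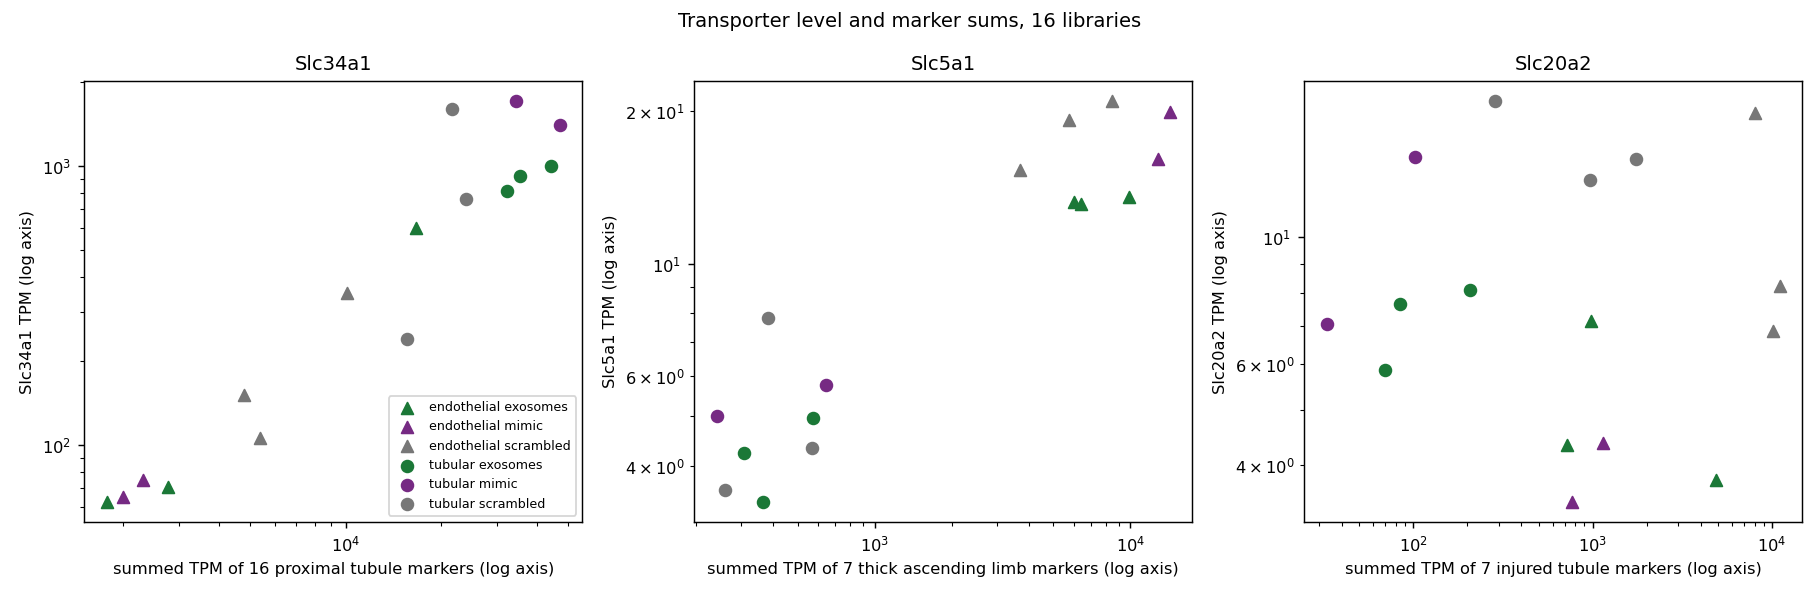
TPM of Slc34a1 against the summed proximal tubule markers, of Slc5a1 against the summed thick ascending limb markers and of Slc20a2 against the summed injured-tubule markers, 1 point per library, on log axes. Endothelial libraries with the most proximal tubule signal (10073 and 16603 TPM) have the most Slc34a1 (352 and 602 TPM), and tubular and endothelial points form separate groups for Slc5a1. Tubular libraries do not keep that order throughout. Scrambled-miRNA replicate 1 has 1611 TPM of Slc34a1 at a sum of 21555 TPM, and exosome replicate 2 has 1001 TPM at 44335 TPM. Scrambled-miRNA replicate 3 is lowest in both (241 and 15588 TPM).

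The sham and untreated groups enter through the authors' deposited tables, which give log2 folds that appear shrunken. Per the labels, the sham and untreated libraries are reanalyses from an earlier series and the treated ones are not, so in tables that set treated against sham or untreated samples the series and the treatment cannot be told apart. Tables of a cell type also share their groups. Slc2a2 has a fold but no p in the 6 endothelial tables.

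In the authors' deposited table of untreated injury over sham in tubular cells, where 20.2% of genes were called, no member was. Slc34a1 was at -0.63 ± 0.44 on the log2 scale (SE, DESeq2 adjusted p = 0.131), Slc20a2 at 0.43 ± 0.25 (0.147), Slc5a12 at -0.37, Slc5a2 at 0.23, Slc2a2 at -0.22, Slc5a1 at 0.11 and Slc34a3 at 0.06. There, 8 of the 16 proximal tubule markers were lower and all 7 injured-tubule markers higher. Of the other genes of these pathways Slc2a1 was higher by 2.76 ± 0.76 (adjusted p = 0.000421), Cyp24a1 by 4.19 and Hk2, a hexokinase, by 3.01, while Slc5a8 was at -2.01, Fgfr4 at -1.23 and Kl, the FGF23 coreceptor, at -1.22. In the 8 tubular libraries with values by library Hk2 averaged only 0.0803 TPM, and its level in the sham and untreated groups is not given. The list of phosphate genes had 2 called higher and 4 lower of 19, and that of sugar genes 3 higher and 5 lower of 19.

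In endothelial cells the authors' deposited table of untreated injury over sham called 4.41% of genes and no member, with folds between -0.32 for Slc34a1 and 0.09 for Slc5a1. Slc20a1 was higher there by 1.97 ± 0.51 (SE, DESeq2 adjusted p = 0.000645). The table of untreated injury over scrambled miRNA called 0.757% of genes and no member, with Slc34a3 at 1.67 ± 1.43 (adjusted p = 0.127) and the rest between -0.12 and 0.19. In tubular cells the same comparison called 17.8% and no member, with Slc5a1 at 0.61 ± 0.29 (adjusted p = 0.0587), Slc2a2 at -0.46 and Slc5a12 at -0.42.

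The authors' deposited table of the mimic over sham in endothelial cells called more members than the other endothelial tables but that of untreated injury over the mimic, which called as many. Of the 6 with a p, 5 were lower, where 7.63% of all genes were. The log2 folds were -3.71 ± 0.76 for Slc34a1, -3.32 ± 1.17 for Slc34a3, -4.23 ± 0.90 for Slc5a2, -3.88 ± 1.11 for Slc5a12 and -0.97 ± 0.36 for Slc20a2 (SE, DESeq2 adjusted p = 4.49e-06, 0.00208, 5.90e-06, 0.000353 and 0.0178). Slc5a1 was at 0.50 ± 0.35 (adjusted p = 0.275) and Slc2a2 at -3.48. There, 15 of the 16 proximal tubule markers were lower too, and the part of the proximal tubule signal was not tested.

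In the authors' deposited table of untreated injury over the mimic in endothelial cells the same 5 members were called higher, where 6.46% of genes were. Slc5a2 was at 3.63 ± 0.91, Slc34a1 at 2.31 ± 0.82, Slc5a12 at 1.99 ± 1.49, Slc34a3 at 1.67 ± 1.77 and Slc20a2 at 1.11 ± 0.37 on the log2 scale (SE). Slc5a1 was at -0.31 (DESeq2 adjusted p = 0.503). Of the 16 proximal tubule markers 14 were higher. The mimic libraries are common to these 2 tables, so they are not separate evidence.

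With exosomes over sham in endothelial cells, the authors' deposited table called 6.73% of genes and, of the members, Slc34a1 at -1.62 ± 0.75 (SE, DESeq2 adjusted p = 0.0255). Slc5a2 was at -1.37 (0.0606), Slc34a3 at -0.58, Slc20a2 at -0.45, Slc5a12 at -0.26, Slc2a2 at -0.29 and Slc5a1 at 0.28. Of the proximal tubule markers 10 of 16 were called lower in it. Untreated injury over exosomes called 3.77% of genes and no member, with Slc20a2 at 0.56 ± 0.34 (adjusted p = 0.139).

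In tubular cells the authors' deposited tables called no member with exosomes over sham (11.2% of genes) or with the mimic over sham (1.03%), where folds lay between -0.42 and 0.21 and between -0.04 and 0.04. The members' SEs were 0.21 to 0.35 with exosomes and 0.11 to 0.12 with the mimic. The mimic folds thus appear more strongly shrunken, and the sizes of these folds cannot be compared. Untreated injury over exosomes called 30.9% of genes and 1 member, Slc5a1, at 0.66 ± 0.28 on the log2 scale (SE, DESeq2 adjusted p = 0.0360); this is 1 of 7 members. Slc5a12 was at -1.03 ± 0.59 (0.0536) and Slc20a2 at 0.43 ± 0.25 (0.155). Untreated injury over the mimic called 22.9% and no member, with Slc5a12 at -0.90 ± 0.63 and Slc34a1 at -0.73 ± 0.48 (adjusted p = 0.115 and 0.136). In those 2 tables Slc20a1 was higher by 2.25 and 2.94 and Slc2a1 by 3.84 and 3.57.

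**Figure D5:**
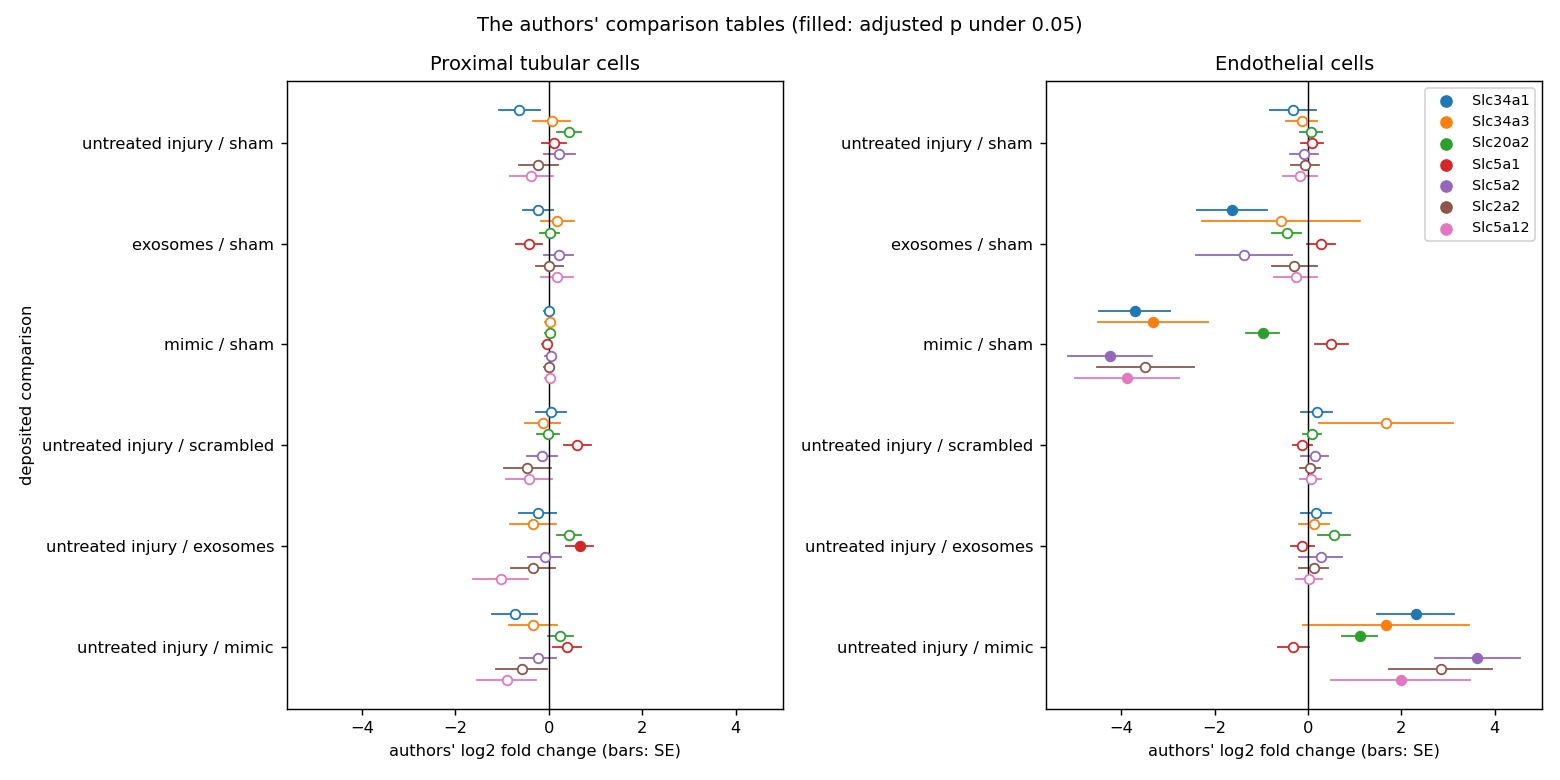
Log2 folds of the 7 transporters in the authors' 12 comparison tables, 6 for each cell type; filled points have an adjusted p under 0.05. The endothelial tables with the mimic group hold the largest folds (-4.23 to 3.63), and the tubular folds lie between -1.03 and 0.66.

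The genes most like each member were sought over the 16 libraries by the root mean square difference of centred log2 CPM (counts scaled to library size), among 5413 genes averaging at least 10 TPM in tubular cells. The libraries share 2 cell types, so a gene that differs between them in like measure scores as near. Slc6a20b, an amino acid transporter gene, and Smim24 lay nearest to Slc34a1, at 0.25 and 0.26, where the SD of Slc34a1 itself was 1.78. Spp2 (0.59) and Gatm (0.60), which encodes an enzyme of creatine synthesis and is on the proximal tubule marker list, lay nearest to Slc34a3 (SD 2.44). Sema4d and Ctsz (0.18 each) lay nearest to Slc20a2 (SD 0.62).

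For Slc5a2 (SD 1.92) the nearest genes were Prodh2 (0.30) and Fut9 (0.32), for Slc2a2 (SD 1.69) Igsf11 (0.23) and Ugt1a9 (0.26), and for Slc5a12 (SD 2.16) Dpep1 (0.45), a brush border peptidase gene, and Prodh2 (0.48). Slc5a1 (SD 0.91), which ran opposite to the rest between cell types, was nearest to Rbms1 and Adam15 (0.28 each). Among the members themselves Slc5a2 and Slc5a12 were closest at 0.49, followed by Slc34a1 and Slc5a2 at 0.50 and Slc5a2 and Slc2a2 at 0.54, and Slc34a3 and Slc5a1 were farthest apart at 3.17.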

How the data were processed

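The 7 genes and all lists were chosen with earlier results of these data known. The submitters' processing notes name Salmon 0.13.1, DESeq2 and the build GRCm38, and settings are not given in the sources used here. The authors deposited Salmon's estimated counts per transcript, not normalized, and TPM computed from them and from effective length, per the file headers. The authors' 12 tables give log2 folds, p-values and adjusted p-values in DESeq2's columns, per the file headers, and a base mean, a signal averaged by the authors over normalized libraries. Their folds were read as the first-named group over the second: differences of the deposited tables correlated with the fits made here over genes at r = 0.503 to 0.757.

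The 136202 transcripts were summed to genes by the symbol in their names, and estimated counts were rounded for the tests. Each cell type was fitted with edgeR 4.0.16 in R 4.3.3 (TMM, filterByExpr with minimum count 10 and minimum total 15, quasi-likelihood F tests, Benjamini-Hochberg at 0.05). All 16 libraries entered 1 further fit for the cell type effect and the interactions, 9 comparisons in all. The SE of an edgeR fold was derived as the absolute log2 fold over the square root of its F statistic. It covers differences between libraries. The procedure was tested on simulated data. Positions come from GENCODE M21 (GRCm38) and promoter windows from RefSeq (GRCm38.p6), where 4 of the 7 genes were found. Of the listed genes, Ankh was not matched. 1 gene of the sodium gradient list is not reported here. Named from the lists in each fitted comparison were genes past the threshold, at most the 8 with the largest absolute fold, and Slc20a1, Slc2a1, Pdzk1ip1, Pdzk1 and Slc9a3r1 always. List genes named from the authors' tables beyond those 5, and the transcripts, were chosen after their values were seen. Likeness was computed on log2 CPM with a prior count of 2. Alternatives were DESeq2 1.42.0, its size factors, no filter, an offset for effective length, a replicate block, fits of the compared groups alone and leaving out each library. Chosen after seeing the data were a block by library number, reads of protein-coding transcripts only, and leaving out both endothelial libraries rich in proximal tubule markers.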

Additional observations from a re-analysis of the deposited data

How the results depend on the processing

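The 7 calls between cell types held in every alternative. Over 1147 alternative folds of the members, 1013 kept direction and side of the threshold, 32 passed it newly, 11 lost it and 91 changed sign. The cause was not tested. Of the 7 members, the 1 called in tubular exosomes against scrambled miRNA became 0 with the length offset, with protein-coding reads, with the replicate block (Slc20a2 adjusted p = 0.0784) and with only the groups compared, and 0 to 1 with a library left out. The endothelial mimic against scrambled miRNA went from 0 to 1 with DESeq2, 5 with no low-count filter, 1 with the replicate block (Slc20a2, edgeR adjusted p = 0.0258), 3 with only the groups compared, 3 with both marker-rich libraries left out, and 0 to 3 with a library left out. The mimic interaction went from 0 to 1 with DESeq2, 5 with no filter, 1 without the marker-rich libraries, and 0 to 2 with a library left out. No filter gave 1 in the tubular mimic (1354 of 28326 genes) and 1 in endothelial exosomes (896 of 29341), both against scrambled miRNA. It gave 4 in the endothelial mimic against exosomes (661 of 29341). Calls over all genes rose too. The endothelial mimic against scrambled miRNA had 1355 of 16296 genes with DESeq2 and 2038 of 29341 with no filter. It had 661 of 16316 with the replicate block, 1494 of 15670 with only the groups compared and 957 of 15985 without the marker-rich libraries. The mimic interaction had 609 of 14789 with DESeq2, 1716 of 31941 with no filter and 308 of 17019 without the marker-rich libraries.

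Deviations of same-numbered replicates correlated at -0.07 to 0.23 in tubular and -0.01 to 0.24 in endothelial cells (7 pairs each). By library number across cell types they correlated at -0.11 to 0.09 (7 pairs). The labels do not say that these numbers mark a shared animal, litter or day. Low correlations cannot show that the samples were unpaired, since libraries with a shared origin need not deviate alike. The replicate block reversed the tubular log2 folds of Slc5a1 (0.07) and Slc5a2 (0.03) with exosomes and of Slc34a3 (-0.48) and Slc5a2 (-0.02) for the mimic against exosomes, and endothelial Slc5a2 with exosomes (-0.35). In the exosome interaction the block gave 0.47 for Slc34a1, 0.39 for Slc5a2, 0.54 for Slc2a2 and 0.38 for Slc5a12, and the block by library number 0.63, 0.59, 0.73 and 0.82. In the mimic interaction Slc5a1 was at -0.06 and -0.08 with these blocks.

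Without the marker-rich libraries signs also turned for Slc34a1 (-0.32), Slc5a2 (-1.03) and Slc5a12 (-0.94) in endothelial exosomes against scrambled miRNA, Slc34a3 (0.74) and Slc5a1 (-0.05) in the mimic against scrambled miRNA, and Slc34a3 (0.26) against exosomes. In the exosome interaction they turned for Slc34a1 (0.70), Slc20a2 (-0.01), Slc5a2 (0.95), Slc2a2 (1.43) and Slc5a12 (1.52), and in the mimic interaction for Slc34a3 (-0.25). Slc20a2 was at -0.08 in the exosome interaction with the length offset, and tubular Slc5a1 at 0.04 with protein-coding reads.

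Leaving out each library in turn gave ranges that cross 0 as follows. In tubular exosomes against scrambled miRNA they were -0.06 to 1.03 for Slc34a1, -0.11 to 1.51 for Slc34a3, -0.22 to 0.43 for Slc5a1 and -0.41 to 0.50 for Slc5a2. In the tubular mimic they were -0.01 to 1.68 for Slc34a3, -0.02 to 0.63 for Slc5a1, -0.13 to 0.78 for Slc5a2 and -0.30 to 0.12 for Slc2a2 against scrambled miRNA, and -0.37 to 0.54 for Slc34a3 and -0.35 to 0.21 for Slc5a12 against exosomes. In endothelial exosomes they were -0.90 to 1.14 for Slc34a1, -0.67 to 2.42 for Slc34a3, -0.28 to 0.06 for Slc5a1, -1.77 to 0.88 for Slc5a2, -2.41 to 0.08 for Slc2a2 and -1.90 to 1.80 for Slc5a12. In the endothelial mimic they were -1.07 to 0.70 for Slc34a3 and -0.10 to 0.25 for Slc5a1 against scrambled miRNA, and -2.38 to 0.26 for Slc34a3 against exosomes. In the exosome interaction they were -0.76 to 1.30 for Slc34a1, -2.05 to 1.06 for Slc34a3, -0.17 to 0.21 for Slc20a2, -0.12 to 0.53 for Slc5a1, -0.98 to 1.68 for Slc5a2, -0.62 to 1.90 for Slc2a2 and -1.24 to 2.47 for Slc5a12, and in the mimic interaction -0.26 to 2.02 for Slc34a3 and -0.16 to 0.53 for Slc5a1. A lone mimic library was assumed to vary like the other groups.

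Calls over all genes moved widely: tubular exosomes against scrambled miRNA had 765 in the main analysis and 1 to 2014 elsewhere, the tubular mimic 3 against 0 to 1354, and the mimic against exosomes 0 against up to 396. The endothelial comparisons had 0 against up to 896 for exosomes, 2038 for the mimic and 661 between them, and the interactions 0 against up to 503 and 1716. Depth limited Slc34a3 most in endothelial cells, with 8 to 144 reads.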
